A study of Mus musculus with 36 samples.

Results

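The genes described here are 10 members of the Toll-like receptor system, the receptors Tlr2, Tlr3, Tlr4, Tlr7 and Tlr9, the co-receptors Cd14 and Ly96, and the adaptors Myd88, Ticam1 and Tirap, which were taken by name from the 24421 genes of the count tables. They were chosen by the measured cerebellar difference of Tlr4 between Pogz-deficient and control mice, to see whether other microglial receptors share it. The cerebellar effect of Pogz on these genes is therefore given as a description, without a test, while the hippocampus, the difference between the tissues and the sexes were tested.

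Poly(A) RNA of the cerebellum and of the hippocampus was sequenced from the same 18 adult C57Bl/6 mice. Control mice carried 2 floxed Pogz alleles and no Cre (Pogz fl/fl), Pogz cKO+/- mice carried Nestin-Cre and 1 floxed allele (NesCre/+ Pogz fl/+), and Pogz cKO-/- mice carried Nestin-Cre and 2 floxed alleles (NesCre/+ Pogz fl/fl). Each genotype had 3 males and 3 females, so that a tissue has 18 libraries with 6 per genotype. No group carried Nestin-Cre without a floxed allele, so against controls the presence of Cre and the loss of Pogz cannot be told apart, whereas both deficient groups carried Cre and differed in their Pogz alleles. The Nestin promoter drives Cre in neural progenitors and their descendants, whereas microglia arise from another lineage and are not a target of this Cre in the model.

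Totals on genes were between 21421850 and 32544929 counts per cerebellar library and between 17609321 and 45544188 per hippocampal library. Pogz, the targeted gene, fell in both tissues, by 0.30 and 0.28 per allele lost on the log2 scale. Marker genes matched the tissue labels, since granule cell markers summed to between 6094 and 6969 CPM, the count of a gene scaled to a common library total, in the control cerebellum and to between 86 and 367 in the control hippocampus. The hippocampal library of the cKO-/- female Sample_1160 stood apart and was left out of the hippocampal values given first. The study excluded an outlier sample without naming it, which was taken to be this one, and values over all 18 libraries are given where they change a call. All 6 controls lie from Sample_1120 to Sample_1219, whereas 3 cKO+/- and 4 cKO-/- mice have numbers outside that range. The labels do not say what the number stands for, and values within the range are given where they differ.

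Toll-like receptors recognise molecules that microbes or damaged cells release and start an inflammatory response. TLR4 binds bacterial lipopolysaccharide together with MD-2, the product of Ly96, and with CD14, which hands the ligand over. TLR2 recognises lipoproteins at the cell surface, while TLR3, TLR7 and TLR9 sense double-stranded RNA, single-stranded RNA and unmethylated CpG DNA inside endosomes. MyD88 carries the signal of all of these receptors except TLR3, TIRAP brings MyD88 to TLR2 and TLR4, and TRIF, the product of Ticam1, serves TLR3 and TLR4. In the brain, microglia, the resident macrophages, express most of these genes, and TLR3 is also found in astrocytes and neurons. The libraries are of whole tissue, in which more cells of a type and more RNA per cell cannot be told apart.

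Tlr4 lies at chr4:66827811-66842796 on the plus strand of GRCm38, the build that the coordinates of the tables match, and Tlr3 at chr8:45395665-45410539 on the minus strand. Tlr9 (chr9:106222598-106226876, plus strand), Tlr7 (chrX:167304926-167330571, minus strand) and Ticam1 (chr17:56269462-56276767, minus strand) share no exon with another gene of the tables, and neither do the other members. The counts hold all annotated exons of a gene, UTRs included. Of the windows of 43 bases, the read length, in the protein-coding transcripts of an NCBIM37 annotation, 1.28% in Myd88 and 1.59% in Tirap also occur in another such gene and none do in the other 8 members.

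The RefSeq promoter table of build GRCm38.p6 covers 250 bases before and 50 after a start and holds 6 of the 10 members, namely Tlr2, Tlr3, Tlr9, Myd88, Ticam1 and Tirap, the last with 2 starts. Of these, the promoters of the receptors that differed between genotypes in the cerebellum (Tlr3) and most between tissues (Tlr9) are printed 5′ to 3′, with matches to the motifs in capitals. The motifs searched on both strands were the interferon-response pattern (GAAA, any 2 bases, GAAA), the PU.1-type site GAGGAAGT, the AP-1 site TGANTCA and the cyclic AMP response element TGACGTCA.
Tlr3, chr8:45410331-45410630, minus strand: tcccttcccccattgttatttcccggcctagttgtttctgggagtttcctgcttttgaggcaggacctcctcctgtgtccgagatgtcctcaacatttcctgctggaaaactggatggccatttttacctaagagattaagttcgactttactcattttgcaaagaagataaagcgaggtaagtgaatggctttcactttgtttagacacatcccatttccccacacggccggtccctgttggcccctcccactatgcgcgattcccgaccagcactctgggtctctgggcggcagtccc
Tlr9, chr9:106222348-106222647, plus strand: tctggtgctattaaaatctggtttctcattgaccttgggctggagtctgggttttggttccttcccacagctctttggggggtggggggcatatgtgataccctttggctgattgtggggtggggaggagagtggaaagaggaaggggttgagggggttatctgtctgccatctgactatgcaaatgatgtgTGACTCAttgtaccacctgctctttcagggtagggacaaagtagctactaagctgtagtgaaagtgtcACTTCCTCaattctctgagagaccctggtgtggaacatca
The Tlr9 promoter held 1 AP-1 letter match and 1 PU.1-type match on the reverse strand, and the Tlr3 promoter held no match to any of the 4 motifs. Among 32851 promoters, 3.44% held the interferon-response pattern, 3.2% GAGGAAGT, 7.81% TGANTCA and 1.79% TGACGTCA. The other match among the members was 1 interferon-response pattern in Myd88. These matches are letters in a window and were not tested as binding sites.

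In the cerebellum Tlr4 was far higher in Pogz-deficient mice than in controls, and more so with no intact allele than with 1. The lowest, median and highest control library stood at 1.09, 2.14 and 2.65 CPM. The same values were 5.05, 5.91 and 8.34 CPM in cKO+/- and 11.5, 14.9 and 23.2 CPM in cKO-/- mice. The 3 genotypes did not overlap, and Tlr4 was counted 34 to 71 times in a control library and 337 to 520 times in a cKO-/- library.

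The mean of 2.02 ± 0.591 CPM in controls (SD, n = 6) compared with 6.13 ± 1.15 in cKO+/- and 15.9 ± 4.06 in cKO-/- mice, which is 3.04-fold and 7.89-fold higher. On the log2 scale the step from control to cKO+/- was 1.65 and the step from cKO+/- to cKO-/- was 1.36. The fitted log2 fold change per allele lost was 1.49 (SE 0.092), and 25 of 14027 tested genes had a larger increase. Without any 1 of the 18 animals it stayed between 1.43 and 1.55, and within the animals Sample_1120 to Sample_1219 it was 1.65. The highest library was that of Sample_1160, and without it the cKO-/- mean was 14.5 CPM.

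**Figure D1:**
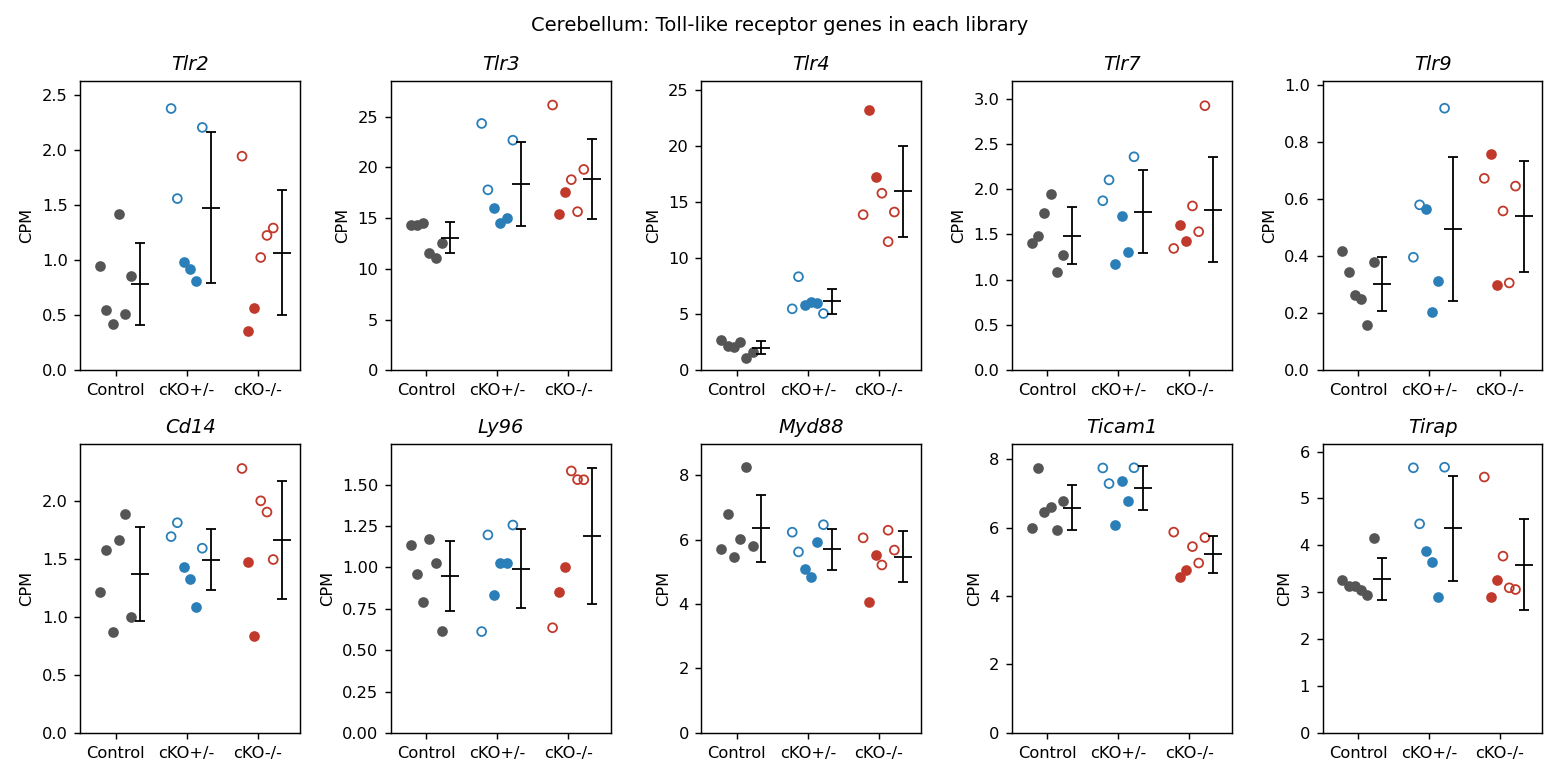
CPM of the 10 genes in each of the 18 cerebellar libraries by genotype, with filled points for animals Sample_1120 to Sample_1219, open points for the others, and black bars for the mean and SD (n = 6). Tlr4 separates the 3 genotypes, Tlr3 separates both deficient groups from controls, Ticam1 is lower in cKO-/- mice, and the groups of the other 7 genes overlap.

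The partners of Tlr4 did not show a difference of that size. Cd14 had a lowest, median and highest CPM of 0.868, 1.40 and 1.89 in controls and of 0.833, 1.70 and 2.28 in cKO-/- mice, a mean 1.22-fold higher. Ly96 stood at 0.619, 0.993 and 1.17 CPM in controls and at 0.635, 1.26 and 1.58 in cKO-/- mice. For both co-receptors the groups overlapped, with 3 of 6 cKO-/- libraries above every control. Their log2 fold changes per allele were 0.14 (SE 0.116) for Cd14 and 0.16 (SE 0.118) for Ly96, each close to its error.

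Tlr3 was the other receptor whose deficient groups stood above the controls in the cerebellum. Its lowest, median and highest CPM were 11.1, 13.4 and 14.5 in controls, 14.6, 16.9 and 24.3 in mice with 1 allele and 15.4, 18.2 and 26.2 in cKO-/- mice. Every library of both deficient groups lay above every control, but the gap to the controls was small, and the 2 deficient groups overlapped. The means were 1.41-fold and 1.45-fold the control mean, and the log2 fold change per allele was 0.26 (SE 0.075). Of 8 astrocyte markers 4 were called higher and 0 lower in the cerebellum, beside 7.11% of all genes called higher. These were Gfap (0.52), Aqp4 (0.33), Gja1 (0.17) and Slc1a2 (0.15), and the median over the 8 was 0.09. The part of astrocyte RNA in the Tlr3 values was not tested.

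The animal number moved with the Tlr3 level. In cKO+/- mice Tlr3 was 21.6 CPM in the 3 animals outside the range and 15.2 in the 3 within it, and in cKO-/- mice 20.1 in 4 animals against 16.5 in 2, with 13.1 ± 1.52 in controls. With a term for the range the log2 fold change per allele was 0.12 (SE 0.069), and within the range it was 0.18 (SE 0.058). The part of the animal number in the difference was not tested.

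Markers of the choroid plexus, the tissue that secretes cerebrospinal fluid, stood apart in 3 of the same libraries. Their summed level was 2351 CPM in Sample_933, 3020 in Sample_936 and 3160 in Sample_1433, and 20.3 to 78.4 CPM in the other 15 cerebellar libraries. These 3 libraries held the 3 highest values of Tlr3 (24.3, 26.2 and 22.7 CPM) and of Tlr2 (2.38, 1.94 and 2.20 CPM). Without them, a choice made after the data were seen, the log2 fold change per allele was 0.21 (SE 0.05) for Tlr3, 0.08 (SE 0.172) for Tlr2 and 1.5 (SE 0.102) for Tlr4. Those of Cd14, Ly96 and Tlr7 were then 0.07, 0.22 and 0.14, and those of Ticam1, Myd88 and Tirap -0.18, -0.11 and -0.01.

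The other receptors varied more between libraries of a genotype than between genotypes. Tlr2 stood at 0.415, 0.704 and 1.42 CPM in controls (lowest, median and highest) and at 0.357, 1.12 and 1.94 in cKO-/- mice, with a log2 fold change per allele of 0.21 (SE 0.223). All 3 cKO+/- libraries numbered outside the range lay above every control in Tlr2 and none of the 3 within it did, and with the range term the log2 fold change turned to -0.33 (SE 0.183). Tlr7 stood at 1.09, 1.44 and 1.95 CPM in controls and at 1.35, 1.57 and 2.92 in cKO-/- mice (0.13, SE 0.108). Cd14, Tlr7 and Tirap also changed sign with that term, to -0.06, -0.05 and -0.11.

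Tlr9 did not pass the filter on low counts in the cerebellum, where it was counted 5 to 11 times in a control library and 9 to 19 times in a cKO-/- library. Its CPM was 0.302 ± 0.095 in controls and 0.54 ± 0.195 in cKO-/- mice (SD, n = 6), with 4 of 6 cKO-/- libraries above every control. At this depth such counts leave a wide counting error.

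Of the adaptors, Ticam1 was lower in cKO-/- mice and the others overlapped. Ticam1 stood at 5.92, 6.52 and 7.73 CPM in controls, at 6.08, 7.33 and 7.75 in cKO+/- and at 4.55, 5.20 and 5.87 in cKO-/- mice (lowest, median and highest). All 6 cKO-/- libraries lay below every control, with a mean 0.793 times that of controls, while the cKO+/- mean was 1.09 times it. The log2 fold change per allele was -0.16 (SE 0.063), and -0.25 (SE 0.068) with the range term. With genotype as a factor, cKO-/- against control, it was -0.33 (SE 0.098). In that fit 1780 of 14027 genes passed the FDR of 0.05, Ticam1, Tlr4 and Tlr3 among them. Nothing is read from these calls, since the members were chosen with this contrast known. Myd88 stood at 5.47, 5.92 and 8.26 CPM in controls and at 4.06, 5.60 and 6.29 in cKO-/- mice (-0.10, SE 0.056), and Tirap at 2.94, 3.13 and 4.16 against 2.90, 3.18 and 5.46 (0.06, SE 0.098).

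Among all 14027 genes tested in the cerebellum, 13.7% passed an FDR of 0.05 for the effect per allele, 7.11% as higher and 6.55% as lower, and Tlr4 and Tlr3 were the 2 of 9 tested members that did. In 4.58% of genes the cKO-/- and control libraries did not overlap, 2.67% with cKO-/- higher, as for Tlr4 and Tlr3, and 1.9% with cKO-/- lower, as for Ticam1. Nothing is read from these counts, since the members were chosen with this contrast known. The median log2 fold change per allele was 0.14 over the 9 members and 0.00 over all genes.

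In the hippocampus of the same animals Tlr4 also rose with the loss of Pogz, with a smaller fold, and the groups overlapped. The lowest, median and highest control library stood at 0.886, 1.11 and 1.76 CPM and those of cKO+/- mice at 1.13, 1.45 and 1.68. The cKO-/- libraries stood at 1.36, 1.68, 2.14, 2.64 and 3.30 CPM, with 3 of 5 above every control, and Sample_1160 at 0.667. The cKO-/- mean of 2.22 ± 0.773 CPM (SD, n = 5) was 1.84-fold the control mean of 1.21 ± 0.303 (n = 6).

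By edgeR's quasi-likelihood test the log2 fold change of Tlr4 per allele in the hippocampus was 0.43 (SE 0.105, adjusted p = 0.0247). In this tissue 4.44% of 14339 genes passed the test, 2.09% as higher and 2.35% as lower, and Tlr4 was the 1 of 9 tested members that did. In 3.65% of genes the 5 cKO-/- and the control libraries did not overlap, and no tested member was among them. The call rested on the choice of libraries, since with Sample_1160 the value was 0.34 (adjusted p = 0.246), with the range term 0.32 (adjusted p = 0.649) and within the range 0.21 (adjusted p = 0.844). It was also lost without Sample_1170, Sample_1190, Sample_1371, Sample_1379 or Sample_1385 (adjusted p between 0.053 and 0.0914).

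Endothelial and meningeal marker sums were also higher in the cKO-/- than in the control hippocampus, with overlap between the groups. The endothelial sum was 115 to 135 CPM in controls and 132 to 206 in the 5 cKO-/- libraries. Of 7 markers 3 were called higher, Pecam1 (0.27), Kdr (0.32) and Cdh5 (0.27), beside 2.09% of all genes. In the order of Tlr4 the cKO-/- libraries Sample_936, Sample_1219, Sample_1371, Sample_1379 and Sample_1385 had endothelial sums of 132, 139, 185, 187 and 206 CPM. It is also the order of their animal numbers. The other groups did not show a matching order of Tlr4 and endothelial sums. The cKO+/- library of lowest Tlr4, Sample_1120 (1.13 CPM), had the highest endothelial sum of its group (170 CPM). The control Sample_1155 stood at 1.33 CPM for Tlr4 and had the lowest control sum (115 CPM). The meningeal sum was 35.1 to 109 CPM in controls and 62.9 to 179 in cKO-/- mice, with Lum called of 6 markers. In the same order of cKO-/- libraries it was 62.9, 179, 134, 145 and 158 CPM. Choroid plexus markers were over 1000 CPM in the controls Sample_1129 (4884 CPM) and Sample_1170 (2364 CPM) and in the cKO-/- libraries Sample_1219 (1117 CPM) and Sample_1385 (4951 CPM). Without these 4 libraries, a choice made after the data were seen, Tlr4 was at 0.39 (SE 0.109, edgeR adjusted p = 0.0941) and no longer called. The part of endothelial and meningeal RNA in the difference was not tested. Whether the effect differs between the tissues was not tested, because the cerebellar contrast chose the gene.

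**Figure D2:**
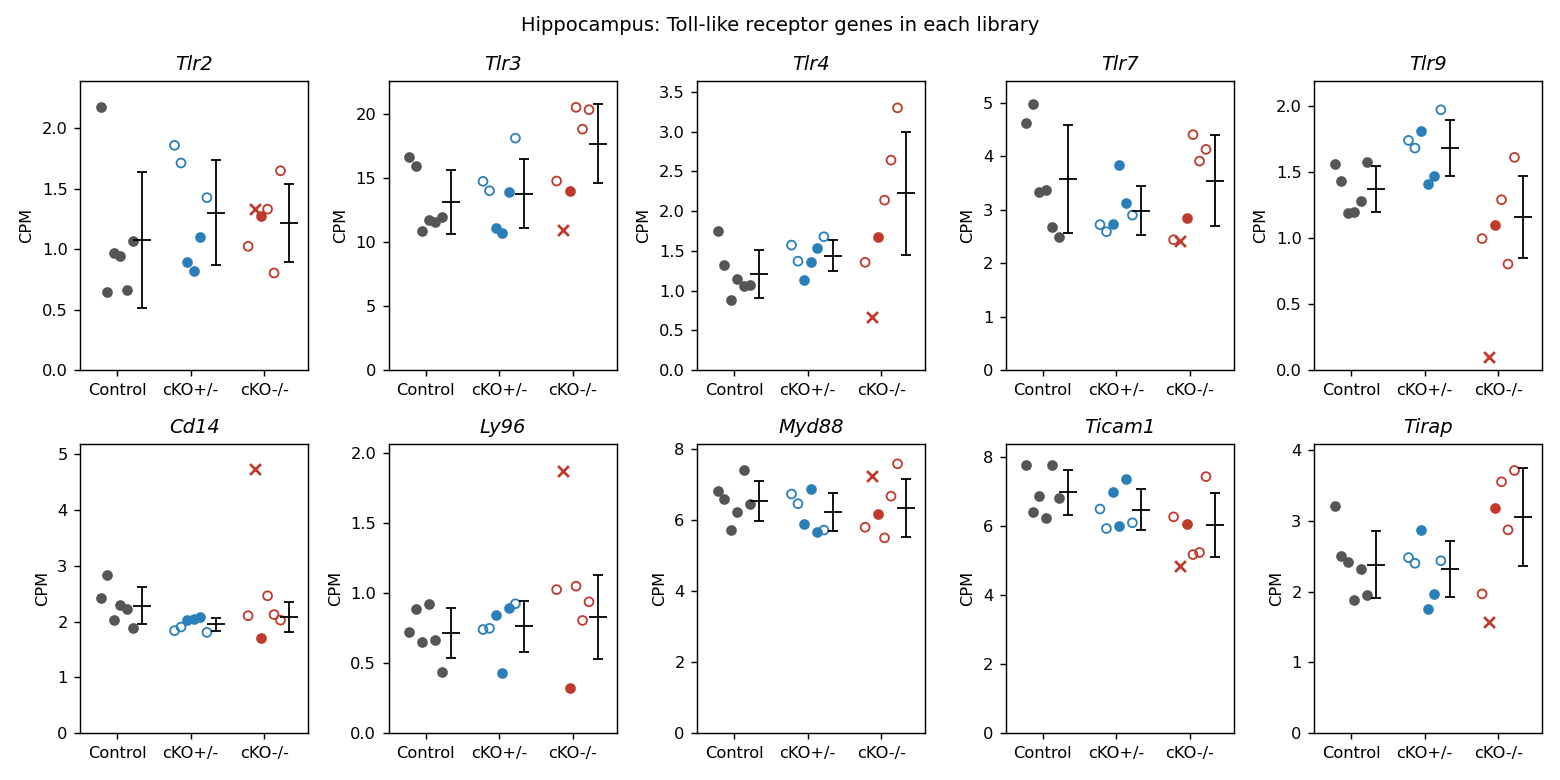
CPM of the 10 genes in each of the 18 hippocampal libraries by genotype, with filled points for animals Sample_1120 to Sample_1219, open points for the others, a cross for Sample_1160, and black bars for the mean and SD without it. In Tlr4, 3 of 5 cKO-/- libraries lie above every control, and in no gene do the genotypes separate.

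The other hippocampal members did not pass the test. Tlr3 came nearest, with 10.9, 11.9 and 16.6 CPM in controls (lowest, median and highest) and with 14.0, 14.8, 18.8, 20.4 and 20.5 CPM in the 5 cKO-/- libraries. Its log2 fold change per allele was 0.21 (SE 0.076, edgeR adjusted p = 0.133), and -0.03 within the range of animal numbers. Tirap stood at 1.97, 2.87, 3.19, 3.55 and 3.71 CPM in cKO-/- mice against 1.89 to 3.21 in controls (0.18, SE 0.089, adjusted p = 0.274).

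None of the 9 tested members was called with all 18 libraries, where Tlr3 was at 0.17 and Tirap at 0.12. The log2 fold changes of Tlr2 (0.12, SE 0.156), Tlr7 (-0.01, SE 0.098), Tlr9 (-0.09, SE 0.102), Cd14 (-0.08, SE 0.064) and Myd88 (-0.02, SE 0.047) were about as large as their errors or smaller. Ticam1 had the same sign as in the cerebellum, with 5.17, 5.23, 6.05, 6.26 and 7.43 CPM in cKO-/- mice against 6.23 to 7.76 in controls (-0.10, SE 0.051, adjusted p = 0.265). Ly96 did not pass the filter on low counts here, at 0.436 to 0.92 CPM in controls and 0.319 to 1.05 in the 5 cKO-/- libraries. Sample_1160 held the highest Cd14 (4.75 CPM) and Ly96 (1.87 CPM) and the lowest Tlr9 (0.103 CPM) of all hippocampal libraries.

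**Figure D3:**
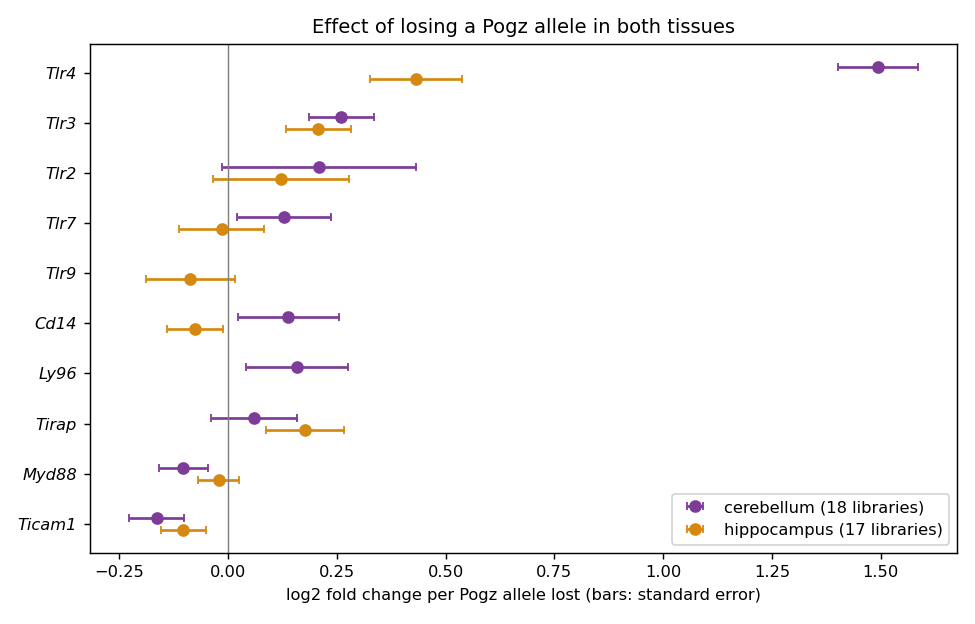
Log2 fold change per Pogz allele lost, with its standard error, for each member tested in the cerebellum (18 libraries) and in the hippocampus (17 libraries, without Sample_1160). Tlr4 in the cerebellum (1.49) lies far to the right of every other value, the next being Tlr4 in the hippocampus (0.43) and Tlr3 in the cerebellum (0.26).

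In the cerebellum microglial marker sums rose above those of controls mainly in deficient animals numbered outside the range, and by far less than Tlr4. The summed level of 20 microglial markers was 222 to 247 CPM in controls, 239 to 389 in the cKO+/- group and 219 to 415 in the cKO-/- group, and all 20 were detected in every group. Within Sample_1120 to Sample_1219 the sums were 239 to 245 CPM in the cKO+/- group and 219 and 267 in the cKO-/- group, and outside that range all 7 were between 295 and 415. Of these 20 markers 7 passed the test, all as higher, beside 7.11% of all genes that passed as higher. Among the 7 were P2ry12, Fcrls, Siglech, Itgam, Cx3cr1 and Gpr34 with log2 fold changes per allele between 0.25 and 0.34. With the range term P2ry12 was at 0.16 and Cx3cr1 at 0.11, and neither was called. Per 100 CPM of that sum, Tlr4 was 0.857 ± 0.256 CPM in controls, 2.15 ± 0.569 in the cKO+/- group and 5.60 ± 2.68 in the cKO-/- group (SD, n = 6). Without Sample_1160 the cKO-/- value was 4.60 ± 1.20 (n = 5). The library of Sample_1160 had the lowest microglial sum of the deficient mice, 219 CPM, and the highest Tlr4.

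In the hippocampus the microglial sum was 603 to 787 CPM in controls, 643 to 737 in the cKO+/- group and 622 to 741 in cKO-/- mice without Sample_1160, which had 1084. None of the 20 markers passed edgeR's or DESeq2's test there, nor did any have an unadjusted p under 0.05. Tlr4 per 100 CPM of the sum was 0.175 ± 0.029 in controls and 0.32 ± 0.092 in the 5 cKO-/- libraries. Markers of the meninges also differed, with a sum of 98.2 to 130 CPM in the control and 123 to 231 in the cKO-/- cerebellum. There 4 of 6 passed as higher, beside 7.11% of all cerebellar genes, and their part in the Tlr4 values was not tested. Those of border macrophages summed to 10.6 to 14.7 CPM in the control cerebellum and to 12.1 to 27.3 in the cKO-/- cerebellum, with Mrc1 (0.32) called higher of 5 tested. Those of monocytes and neutrophils summed to 0.722 to 3.44 CPM (mean 1.55) in controls and 0.899 to 6.86 (mean 3.92) in cKO-/- cerebella, and none of the 7 passed the filter on low counts, although DESeq2, which was run without it, called 3 of them. Within the range of animal numbers the cKO-/- cerebella of Sample_1160 and Sample_1219 had meningeal sums of 123 and 148 CPM. Outside it those of the cKO-/- group were 203 to 231 CPM. Border macrophage sums were 12.1 and 16.1 CPM within it and 15.8 to 27.3 outside. Monocyte and neutrophil sums were 2.72 and 0.899 CPM within it and 2.88 to 6.86 outside. The part of border macrophages, monocytes and neutrophils in the Tlr4 values was not tested.

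**Figure D4:**
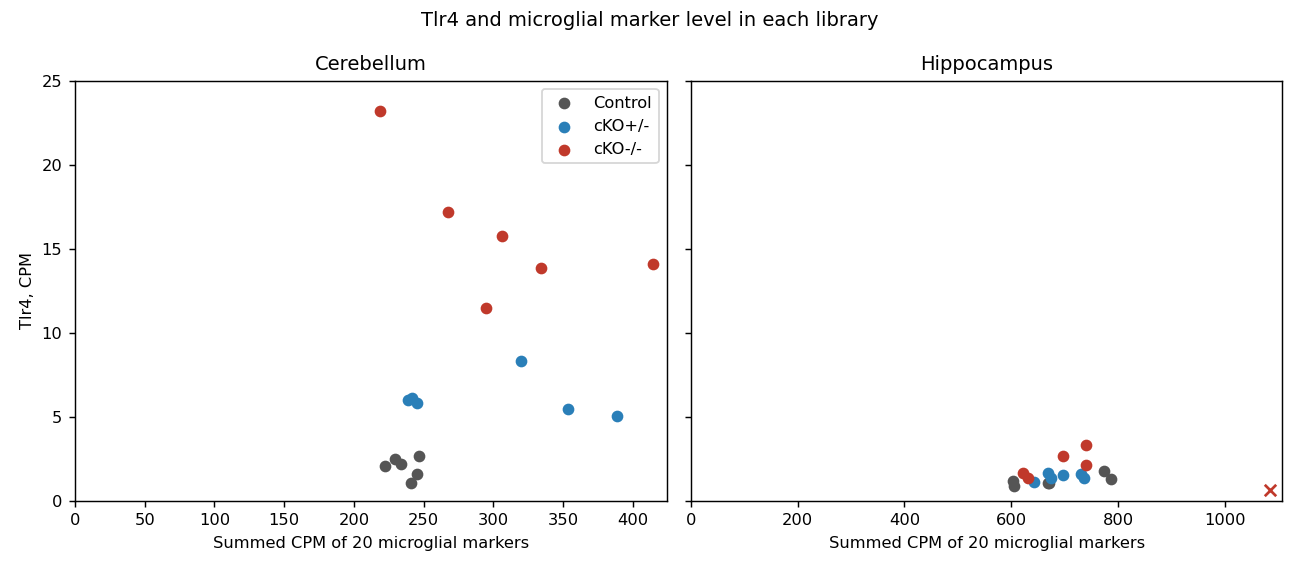
Tlr4 in CPM against the summed CPM of 20 microglial markers in each library, coloured by genotype, with a cross for Sample_1160 in the hippocampus. In the cerebellum the genotypes separate along the Tlr4 axis and overlap along the marker axis, and in the hippocampus the markers are higher and Tlr4 stays at or below 3.30 CPM.

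Across the 18 cerebellar libraries, after the mean of each genotype was removed, Tlr4 and the mean microglial marker had a correlation of -0.43. Tlr2 had 0.76, Tlr3 0.67, Tlr7 0.59, Cd14 0.38 and Ly96 0.25. Differences between the sexes were not removed. The adaptors Ticam1, Myd88 and Tirap had 0.62, 0.61 and 0.57. These points share library depth and tissue makeup and are a description. The genes whose residual pattern was most like that of Tlr4 were Thap2 (r = 0.92), Arid4a (0.87), A230046K03Rik (0.87), S100pbp (0.86) and Tmtc3 (0.86). Their own log2 fold changes per allele were between -0.03 and 0.14. For Tlr3 the most similar genes were Frmd4b (0.95), Ptprf (0.93), Slc7a2 (0.92), Spata13 (0.92) and Acan (0.91), with log2 fold changes per allele between -0.02 and 0.20 for the first 4 and of 1.04 for Acan.

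Genes next to Tlr4 on chromosome 4 did not show its difference. Within 3 Mb on either side the tables list Tnfsf8, Tnc, Pappa, Astn2, Trim32 and Brinp1. Tnfsf8 was too low to test, and Brinp1, 1.92 Mb away, fell by 0.16 per allele (SE 0.051). The other 4 were not called, with cerebellar log2 fold changes between -0.04 and 0.16.

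In control mice Tlr9, Tlr7 and Cd14 were higher in the hippocampus than in the cerebellum, and Tlr4 and Tirap were lower. Tlr9 stood at 0.16 to 0.417 CPM in the cerebellum and at 1.19 to 1.58 in the hippocampus, without overlap. It was higher in the hippocampus by 2.27 on the log2 scale (SE 0.212, edgeR adjusted p = 3.81e-07). Tlr9 passed the filter on low counts only through the hippocampal libraries, where it was higher, so nothing is read from this call. Tlr7 was higher by 1.36 (SE 0.195, adjusted p = 2.7e-05), with 1.09 to 1.95 against 2.48 to 4.97 CPM, and Cd14 by 0.83 (SE 0.188, adjusted p = 0.00137), with 0.868 to 1.89 against 1.88 to 2.84 CPM.

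Tlr4 was lower in the hippocampus by edgeR's test, with a log2 difference of -0.63 (SE 0.211, adjusted p = 0.0156), although its control libraries overlapped between the tissues. This call was lost without Sample_1172 (adjusted p = 0.0674). Tirap was lower as well, at -0.37 (SE 0.149, adjusted p = 0.038), and lost the call in 5 of 6 fits that left out an animal. Myd88, Ticam1 and Tlr3 did not pass, with differences between 0.10 and 0.18.

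The background of this comparison is high, with 71.9% of 14224 genes called, 35.2% as higher and 36.7% as lower in the hippocampus. Of the 8 tested members 5 were called, Tlr9 among them, which is a share near that of all genes. All 20 microglial markers were higher in the hippocampus, with a median difference of 1.68 on the log2 scale, as were 22 of 24 microglial surface receptors, among them the fractalkine receptor Cx3cr1 (1.89), the growth factor receptor Csf1r (1.83) and the lectin Siglech (1.96). Cx3cr1, Csf1r and Siglech belong to both lists. Of the surface receptors, the purine receptor P2rx4 was the 1 called lower (-1.42). Of the signalling genes 9 were higher and 10 lower of 35 tested, with the inhibitor Nfkbie at -2.12, the kinase Map3k8 at -1.52 and the NF-kB subunit Rela at -0.62.

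Levels of different genes were compared per kilobase of exon. In the control cerebellum the order was Myd88 (3.33 CPM per kb), Tlr3 (3.02), Ticam1 (2.32), Ly96 (1.58), Cd14 (0.824), Tirap (0.673), Tlr4 (0.525), Tlr7 (0.374), Tlr2 (0.274) and Tlr9 (0.087). Only Ticam1 from Ly96 and Tlr2 from Tlr9 were neighbours without overlap between their libraries. In the control hippocampus Myd88 (3.42), Tlr3 (3.03) and Ticam1 (2.46) again led and stood apart from Cd14 (1.37) and Ly96 (1.18), and Tlr4 was last at 0.314.

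**Figure D5:**
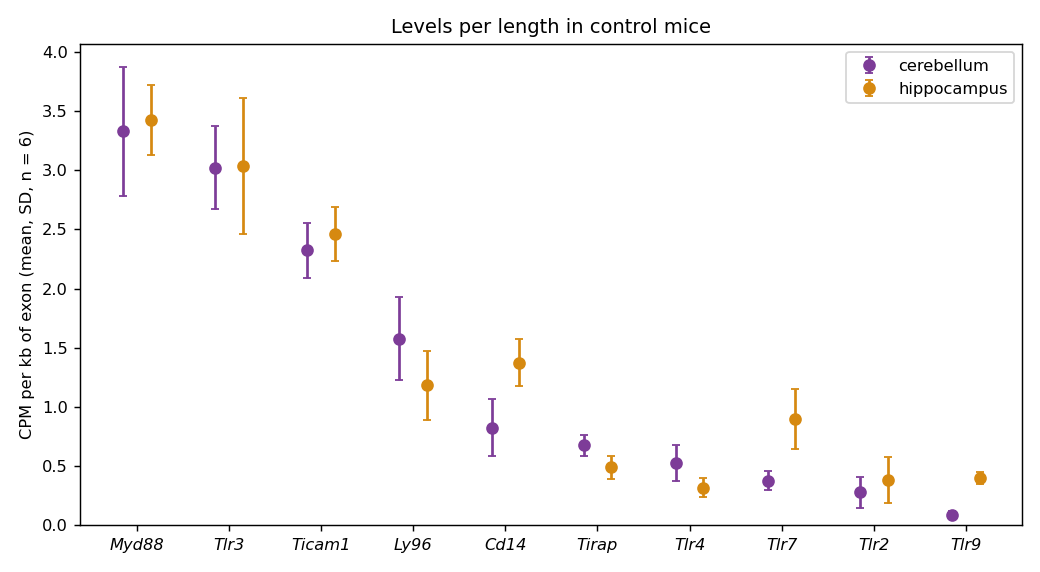
Mean CPM per kilobase of exon with the SD in the 6 control mice for each member in both tissues, in the order of the cerebellum. CPM were scaled within each tissue. Tlr7, Tlr9 and Cd14 are higher in the hippocampus, and Tlr4 and Tirap are lower.

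The rest of the pathway was read from lists of receptors and partners, signalling genes, inflammatory target genes, interleukin-1 receptor relatives and microglial surface receptors. In the cerebellum 2 of 11 tested receptors and partners passed, both higher, against 13.7% of all genes. Cd36, a scavenger receptor that partners TLR2 and TLR4, rose by 0.69 per allele (SE 0.135), with 0.284, 0.575 and 0.962 CPM in controls and 0.933, 1.40 and 2.07 in cKO-/- mice (lowest, median and highest). No control library of Cd36 reached 1 CPM, so it passed the filter on low counts through Pogz-deficient libraries, where it was higher. Pik3ap1, an adaptor that links receptors to PI3-kinase, rose by 0.39 (SE 0.127), and was named after its value was seen. The other Toll-like receptors were low, with Tlr1, Tlr5, Tlr6, Tlr8, Tlr11 and Tlr12 under the filter in both tissues.

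Of 36 signalling genes tested in the cerebellum, 1 rose and 3 fell, against 13.7% of all genes, with a median log2 fold change of -0.01. The kinase Map3k8 fell by 0.37 per allele (SE 0.072), the interferon factor Irf3, which acts after TRIF, by 0.24 (SE 0.064), and the IKK subunit Ikbkb by 0.14 (SE 0.043). Traf3, which links TRIF to interferon signalling, rose by 0.17 (SE 0.05) and was named after its value was seen. None of 6 tested inflammatory targets passed edgeR's test, also at an unadjusted p under 0.05 or by DESeq2, and the other 20 of 26 were too low to test. None of the 4 tested interleukin-1 receptor relatives passed it either, with 1 at an unadjusted p under 0.05 and 1 called by DESeq2.

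Of 24 tested microglial surface receptors 8 were called, 6 higher and 2 lower, beside 13.7% of all genes. Of the 6, P2ry12, Cx3cr1, Siglech, Itgam and Gpr34 are also microglial markers named above. The purine receptor P2ry12 rose by 0.27 (SE 0.063), Cx3cr1 by 0.25 (SE 0.063) and the Fc receptor Fcgr2b by 0.43 (SE 0.114), each far less than Tlr4. Mertk, a receptor for the engulfment of dying cells, fell by 0.33 (SE 0.055) and P2rx4, named after its value was seen, by 0.11 (SE 0.036). With the range term Mertk alone of these named receptors and signalling genes and of Cd36 was still called, at -0.23, while within the range it was not, at -0.22, and P2rx4 was, at -0.18. Without the 3 libraries high in choroid plexus markers, Ikbkb, Traf3, Pik3ap1 and P2rx4 were no longer called.

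In the hippocampus Cd36 and Mertk were called again, in the same directions. Here too Cd36 passed the filter on low counts only with Pogz-deficient libraries, since its control median was under 1 CPM. With no filter on low counts its edgeR adjusted p was 0.00218. Cd36 stood at 0.494, 0.84 and 1.43 CPM in controls and at 2.44, 3.77 and 5.73 in the 5 cKO-/- libraries (lowest, median and highest), without overlap. It rose by 1.01 per allele (SE 0.18, edgeR adjusted p = 0.00298), also with all 18 libraries (adjusted p = 0.00343) and within the range of animal numbers (adjusted p = 0.0259), while with the range term its adjusted p was 0.0982. Mertk stood at 38.0, 42.2 and 49.1 CPM in controls and at 26.4, 29.4 and 29.8 in the 5 cKO-/- libraries, and fell by 0.29 (SE 0.07, adjusted p = 0.0235). That call was lost with all 18 libraries (adjusted p = 0.217), with the range term (adjusted p = 0.72) and without the 4 libraries high in choroid plexus markers (adjusted p = 0.112), where Cd36 was still called (adjusted p = 0.026). No signalling gene of 36, inflammatory target of 5 or interleukin-1 receptor relative of 5 passed edgeR's test, with 0, 0 and 1 at an unadjusted p under 0.05 and 1, 0 and 0 called by DESeq2.

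None of the members passed edgeR's test between the sexes in either tissue, where 0.0499% of genes in the cerebellum and 0.907% in the hippocampus did. In the cerebellum 1 member, Myd88, had an unadjusted p under 0.05 in that fit across all genes, with a female-against-male log2 difference of -0.20 (SE 0.092), and in the hippocampus 0 did. DESeq2 called 0 members in either tissue. For Tlr4 the female-against-male log2 difference was 0.28 (SE 0.145) in the cerebellum and 0.18 (SE 0.172) in the hippocampus.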

How the data were processed

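Poly(A) RNA libraries of 36 samples (18 mice, 2 tissues) were sequenced by the authors as 43 bp paired-end reads, aligned with STAR 250a (the version in the submitters' processing notes) and deposited as raw counts per gene, without normalization. The notes name mm9, while the table coordinates match GRCm38, and whether strand was used in counting is not given in the sources used here. Counts were scaled to CPM with TMM factors of each tissue in edgeR 4.0.16 (R 4.3.3). The test between tissues used factors over the control libraries of both tissues, so its differences need not equal those of the CPM. The test took genes with over 1 CPM in 6 or more libraries and was edgeR's quasi-likelihood test (legacy fit) with sex and the number of alleles lost, and with sex and tissue in the controls, at a Benjamini-Hochberg FDR of 0.05 over all genes tested; the fits were tested on simulated data. Alternatives were DESeq2 1.42.0, other size factors, no filter, genotype as a factor, a term for or restriction to Sample_1120 to Sample_1219, all 18 hippocampal libraries, the animal as a block, and each animal left out; leaving out libraries over 1000 CPM of summed choroid plexus markers was added after the data were seen. Residual correlations used log2(CPM + 0.5).

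The 10 members and the gene lists were chosen with earlier results of these data known. Named pathway genes are up to 4 called higher and 4 called lower per comparison, by smallest adjusted p. Pairing of tissues comes from the animal numbers: deviations of the same animal's 2 control libraries correlated by -0.02 to 0.41 (median 0.25), against a median of -0.05 between animals. Totals of 17609321 to 45544188 counts leave genes near 1 CPM with few counts. Protein sequences were not used here. The result of 1 microglial marker gene is not reported here by name.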

Additional observations from a re-analysis of the deposited data

Results flagged for a closer look

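In 7 of 60 groups of 6 libraries (10 members, 3 genotypes, 2 tissues) the highest or the lowest library stood farther from the rest than Dixon's 95% limit allows, which chance does in about 5% of groups. In the cerebellum these were the cKO+/- library Sample_938 for Tlr4 (8.34 CPM), the cKO-/- library Sample_1385 for Tlr7 (2.92 CPM), the cKO-/- library Sample_936 for Tirap (5.46 CPM) and the control library Sample_1192 for Tirap (4.16 CPM). In the hippocampus they were the control library Sample_1129 for Tlr2 (2.17 CPM), the cKO-/- library Sample_1160 for Cd14 (4.75 CPM) and, as the lowest of its group, the cKO+/- library Sample_1176 for Ly96 (0.426 CPM).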

How the results depend on the processing

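No alternative turned the sign of a called value. The number of cerebellar genes called, 1916, was 308 with the range term, 277 within Sample_1120 to Sample_1219, 48 for cKO+/- against control, and 935 to 2572 when an animal was left out (935 without Sample_1385); 1 member stayed called under the first 3 of these and 1 to 2 when an animal was left out. Nothing is read from these cerebellar calls of members, since the members were chosen with this contrast known. Cerebellar Tlr4 was 3.0 for cKO-/- against control. In the hippocampus 636 genes became 1103 with DESeq2, 246 with all 18 libraries, 68 with the range term, 27 within the range, 167 without the 4 libraries high in choroid plexus markers (added after the data were seen), 5 for cKO+/- against control and 286 to 937 without an animal. Hippocampal Tlr4 was 0.34 with all 18 libraries, 0.32 with the range term, 0.21 within the range, 0.39 without those 4 libraries and 0.26 for cKO+/- against control, with 0 members called under each, and 0.33 to 0.50 without an animal, with 0 to 1 called. Between tissues 3 to 5 members were called without an animal. The sexes gave 23 cerebellar calls with DESeq2 in place of 7, and 685 with DESeq2, 6 with all 18 libraries and 30 to 212 without an animal in place of 130 in the hippocampus. With the animal as a replicate block 10377 genes differed between tissues in place of 10227, and no call of a member changed. What moved these values was not tested. Depth limits Tlr9 in the cerebellum and Ly96 in the hippocampus, which lie near or under the filter.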
